A study of Homo sapiens with 38 samples.

Results

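The transcripts described here are those that the GENCODE annotation types as targets of nonsense-mediated decay (NMD), in the human colorectal cancer cell line HCT116. A transcript was included when its gene averaged at least 5 TPM (a level scaled by transcript length and library total) over 30 RNA-seq libraries. This rule took 8768 NMD transcripts in 3869 genes, out of 14506 NMD transcripts in 6977 genes, among 8588 genes that reached the threshold and 195887 transcripts matched to the annotation. The genes were selected on their mean TPM, and the share of a gene's TPM that its NMD transcripts took played no part in the choice. The genes nearest to the threshold were TTC7A at 4.9875, SLX4IP at 4.9907 and PCTP at 4.9985 TPM outside it, and TMUB2 at 5.0137, CHPT1 at 5.0168 and NBPF3 at 5.0168 TPM inside it. The rule reads the annotation, so a transcript of this type was not shown here to be degraded.

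The study asked how loss of Argonaute proteins, the RNA-binding proteins of RNA interference, changes splicing in the nucleus. The groups were wild-type HCT116 cells and lines carrying AGO1-/-, AGO2-/-, AGO1-/- with AGO2-/- (AGO1/2), or AGO1-/- with AGO2-/- and AGO3-/- (AGO1/2/3), all untreated. Each was sequenced as a nuclear and a cytoplasmic fraction in 3 libraries, labelled by passage, which gave 10 groups. Every knockout is 1 edited line made from the same parental line, AGO4 was not targeted, and the wild-type libraries came from passages 27 to 29 while the knockouts came from passages 6 to 14. The genotype, the line and the passage range therefore cannot be told apart, and p-values measure the spread between passages of 1 line. RNA was depleted of ribosomal RNA and sequenced by strand, and 8 samples of the series from crosslinking and immunoprecipitation (eCLIP), 4 of them input controls, were not used here.

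In the libraries labelled AGO1-/-, alone or combined, AGO1 mRNA stood at 2.39 to 4.13 TPM in nuclei against 9.34 to 12.6 TPM in wild type, and at 0.807 to 1.02 against 10.7 to 14.4 TPM in cytoplasm. AGO2 mRNA was still present in the cytoplasm of the lines labelled AGO2-/-, at 16.6 to 21 TPM in AGO2, 28.6 to 29.2 in AGO1/2 and 24.1 to 28.8 in AGO1/2/3 against 31.1 to 39.8 TPM in wild type. AGO3 mRNA in the AGO1/2/3 line stood at 13.7 to 16.1 TPM in nuclei against 18.2 to 23.3 TPM in wild type, and at 8.02 to 9.33 against 6.62 to 9.53 TPM in cytoplasm, so its cytoplasmic level overlapped wild type. Estimated reads per library ran from 20431557 to 54097984 in nuclei and from 39476205 to 79731793 in cytoplasm, with wild type the shallowest in both. The epithelial markers EPCAM, CDH1, KRT8, KRT18, KRT19 and CDX2 were present in every library, while VIL1 stayed at or below 0.0773 TPM. The 7 epithelial markers summed to 1154 to 1255 TPM in wild-type nuclei and 1026 to 1360 TPM in the single knockouts. In AGO1/2 nuclei they summed to 2598 to 2775 TPM and in AGO1/2/3 nuclei to 2014 to 2363 TPM. In cytoplasm the sum was 1173 to 1330 TPM in wild type and 808 to 981 TPM in AGO1/2. KRT8, KRT18 and KRT19 were higher in AGO1/2 nuclei than in wild type, while EPCAM and CDH1 were lower. CDH1 stood at 3.23 to 5.34 against 16.4 to 29.8 TPM and EPCAM at 58.1 to 65.6 against 90.1 to 102 TPM. The part of these markers in the nuclear results was not tested. Among markers of other cells, PTPRC, CD3E, COL1A2, DCN, PECAM1 and VWF stayed at or below 0.145 TPM and COL1A1 reached 6.21 TPM in nuclei, and these 7 together summed to 0.657 to 6.39 TPM. The nuclear RNAs MALAT1 and NEAT1 summed to 2789 to 3665 TPM in wild-type nuclei and to 1259 to 2164 TPM in the knockout nuclei, against 90.7 to 164.8 TPM in cytoplasm. GAPDH and ACTB summed to 1124 to 1462 TPM in wild-type nuclei and to 1494 to 3018 TPM in knockout nuclei, so both sums moved with genotype. In such bulk fractions fewer cells that carry a transcript and less of it per cell cannot be told apart.

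Nonsense-mediated decay removes mRNAs on which the ribosome stops too early. In mammalian cells a stop codon is usually read as premature when an exon junction, marked by the exon junction complex, lies well downstream of it, and the helicase UPF1 with the SMG and UPF proteins then triggers degradation. Because the trigger is translation, the pathway acts mainly in the cytoplasm. Many RNA-binding proteins, above all the SR family of splicing factors, use it to limit their own level, by splicing their pre-mRNA into forms with a premature stop.

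The annotated structures of the members carried that layout. Of 8763 members with an annotated stop codon, 57.7% ended in TGA, 22.9% in TAA and 19.4% in TAG. The stop lay a median of 307 nt upstream of the last exon junction, with an interquartile range of 161 to 632 nt, and 99.852% lay over 50 nt upstream. A median of 3 junctions followed the stop. The reading frame held a median of 89 codons, against 494 codons in the canonical transcript of the same gene. A median gene had 2 members, 1758 genes had 1, and PIGT, a subunit of the complex that attaches GPI anchors, had 36.

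The stop fell into 3 main kinds of place relative to the canonical transcript. In 4669 members, 53.3%, it lay in a canonical coding exon read in another frame, as happens after an exon is skipped or a splice site moves. In 2376 members, 27.1%, it lay in an exon that the canonical transcript lacks. Poison exons fall in this class, which was not limited to exons spliced in between canonical ones. In 1059 members, 12.1%, it lay in an exon that was extended into, or retained, intron sequence. A further 372 members, 4.24%, used the canonical stop and owed their type to introns spliced within the 3′ UTR, while 217 stopped beyond the ends of the canonical transcript and 55 in its UTRs.

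The last bases before the stop are shown for members on which results below turn and whose listed length equals that of the annotation, because these bases show what the ribosome would meet. Each is 5′ to 3′ along the GENCODE release 44 transcript (GRCh38), and the capitals mark the premature or junction-distal stop codon.
SRSF1-204: tttgaccagaattggatacagtggtctTAA
SRSF7-208: cggcgaagaagaagcaggtatttatttTAA
TRA2B-205: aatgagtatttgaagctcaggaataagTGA
HNRNPA1-205: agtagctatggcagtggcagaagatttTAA
RPS3-218: gtctgggaaactccgaggacagagggcTAA
PDIA3-202: gaagaggagagtctcctccagcctcatTGA
ELP2-210: cctcagtcctggacgtgggtggggctgTGA
TANK-209: cctcagctcttgcttctcatcttatccTGA
DNAJC10-203: gagaaaaacagtattttgctgcttcatTGA

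These stops lay in different settings. SRSF1-204 stopped at chr17:58005747-58005749 on the minus strand, with a reading frame of 201 codons where the canonical one has 248, and SRSF7-208 at chr2:38749516-38749518 on the minus strand with 132 against 238, both in exons extended into intron sequence. TRA2B-205 stopped at chr3:185931772-185931774 on the minus strand with 38 against 288 codons, PDIA3-202 at chr15:43751630-43751632 on the plus strand with 71 against 505, TANK-209 at chr2:161216437-161216439 on the plus strand with 125 against 425 and DNAJC10-203 at chr2:182739554-182739556 on the plus strand with 121 against 793, each in an exon that the canonical transcript lacks. HNRNPA1-205 kept the canonical stop at chr12:54284311-54284313 on the plus strand, with 2 junctions in its 3′ UTR. RPS3-218 stopped at chr11:75404110-75404112 (plus, 115 against 243 codons) and ELP2-210 at chr18:36170154-36170156 (plus, 705 against 826), both in canonical coding exons in another frame. Stop positions are not given for MET-204, MTHFD1-210 and ROCK1-207, whose listed lengths of 2295, 803 and 5656 nt differ from the 6722, 2063 and 10996 nt of release 44, so the quantified transcripts are not those structures. HRAS-206, KMT2E-201, MRPS25-207 and SRPK2-212, named below, also differ in length.

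Most members were rare, and a few were abundant. A mean of at least 0.5 TPM was reached by 2855 members in the nuclear libraries and by 2011 in the cytoplasmic ones, and 343 were listed at 0 in all 30. The highest mean level was that of RPS3-218, from the gene of a small-subunit ribosomal protein, at 421.8 TPM of the 1153 TPM of its gene. FTH1-208 (ferritin heavy chain, 220.4 of 896.8 TPM), HNRNPA1-205 (the splicing regulator hnRNP A1, 207.8 of 726.8 TPM), RACK1-224 (a ribosome-bound scaffold protein, 137.4 of 857.4 TPM) and B2M-209 (the light chain of MHC class I, 135.6 of 199 TPM) followed. The next were H2BC15-201 (a histone H2B, 129.6 of 168 TPM), PDIA3-202 (an endoplasmic reticulum disulfide isomerase, 122.8 of 147.5 TPM), COX6C-207 (a cytochrome c oxidase subunit, 100.4 of 123.8 TPM), ADIRF-203 (94.5 of 120.5 TPM) and a second RACK1 transcript, RACK1-210, at 91.7 TPM. These levels are estimates that divide reads between overlapping transcripts of one gene, and near-identical copies of RPS3, HNRNPA1, FTH1 and the histone genes add to their uncertainty.

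The abundant members differed in how steady their share of the gene was. PDIA3-202 took 81.2 to 85.1% of PDIA3 in all 30 libraries and H2BC15-201 took 74.1 to 80.8% of its gene. RPS3-218 took 38.6, 39.4 and 41.7% in the 3 wild-type nuclear libraries and 35.1, 36.4 and 31.5% in the cytoplasmic ones. FTH1-208 stood at 6.36, 6.06 and 3.72% in wild-type nuclei against 23.5, 21.2 and 25.8% in wild-type cytoplasm, so its fractions did not overlap. Its share was higher in all 12 knockout nuclei, at 16.7, 14.6 and 11.8% in AGO1, 16.9, 14.7 and 16.6% in AGO2, 19.8, 12.6 and 16.7% in AGO1/2, and 19.5, 19.2 and 20.9% in AGO1/2/3. In the cross-transcript limma fit described below these 4 differences had log2 ratios of 1.58, 1.78, 1.79 and 2.16, each with SE 0.23 and adjusted p of 0.00649, 0.00111, 5.02e-05 and 3.97e-05. In a limma fit of the compared groups alone the AGO1 call was lost, at 0.1245.

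Across genes the NMD share was low in most and high in a small group. Over the nuclear libraries the median gene had 3.59% of its TPM in NMD transcripts, 551 of the 3869 genes had at least 20% and 85 had at least 50%. In the cytoplasm the median was 2.79%, with 654 and 151 genes at those levels. Genes under 1% numbered 1020 in nuclei and 1271 in cytoplasm, so the cytoplasm held more genes at both ends of the range.

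The mean share per library answered whether NMD transcripts took more of their genes' RNA in one fraction. It was 8.97% ± 0.0914 in nuclei and 9.97% ± 0.236 in cytoplasm (SD, n = 15 each). The difference was -0.998 percentage points with a two-sided permutation p of 2e-05, the smallest that the 100000 resamples can give. That test treats the 15 libraries of a fraction as independent, although they are 3 passages of each line. Its p therefore overstates the support from independent lines. In each genotype all 3 cytoplasmic libraries were above all 3 nuclear ones, with an exact permutation p of 0.1, the smallest that 3 against 3 allows. In wild type the means were 9.04% ± 0.0958 and 9.82% ± 0.238 (SD, n = 3).

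The direction turned with the summary used. The per-library median over genes was higher in nuclei, at 3.45 against 2.61%. Transcripts that retain introns took 21.6% ± 0.339 of these genes' TPM in wild-type nuclei and 5.54% ± 0.312 in wild-type cytoplasm (SD, n = 3), and such transcripts are part of the total. When the NMD share was taken of protein-coding plus NMD TPM, it was 12.5% in nuclei and 11.6% in cytoplasm, higher in nuclei by 0.914 percentage points. On that scale wild type stood at 13.3% ± 0.0711 in nuclei and 11.4% ± 0.269 in cytoplasm, while in the AGO1/2 line the order was the opposite, at 11.6% ± 0.103 and 11.9% ± 0.183 (SD, n = 3).

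**Figure D1:**
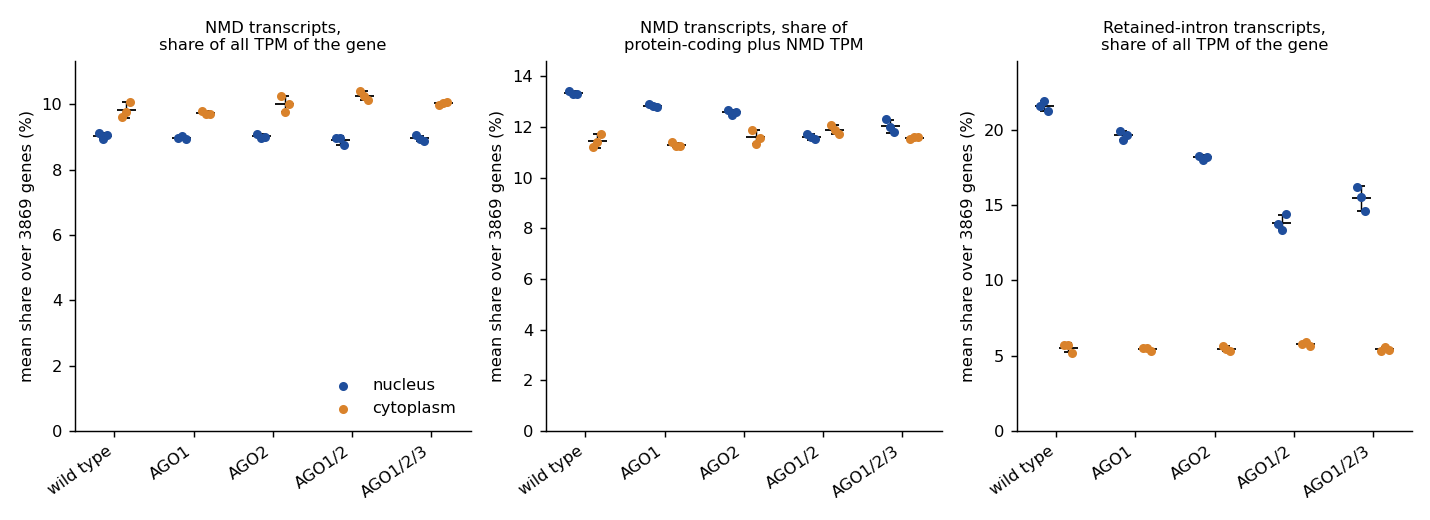
Mean share over 3869 genes (y axis, percent) in each of 30 libraries for 5 genotypes (x axis), as NMD transcripts of all TPM, NMD transcripts of protein-coding plus NMD TPM, and retained-intron transcripts of all TPM, with points for libraries, lines for means and bars for SD (n = 3). The cytoplasm is above the nucleus in the first panel, whereas in the second the nuclear values run from 13.3% in wild type to 11.6% in AGO1/2, and in the third from 21.6 to 13.8%.

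Single transcripts were compared by the log2 ratio of a transcript's TPM to that of the rest of its gene, each plus 0.1 TPM, in limma's moderated test fitted over all transcripts of at least 0.5 TPM. The call asked for a change of 5 percentage points or more in mean share and, after Benjamini-Hochberg adjustment over all transcripts tested, a p no higher than 0.05. Between wild-type nuclei and cytoplasm 1015 of the 2549 members tested were called, 407 with a higher share in nuclei and 608 in cytoplasm. That is 39.8% of the members, beside 52.9% of all transcripts tested. Called or not, 45.5% of members had a higher share in nuclei, with a median difference of -0.48 points. Over all transcripts tested it was 52.8%, with a median of 0.47 points. As shares of protein-coding plus NMD TPM, 1040 were called and the split turned to 603 and 437. In the AGO1/2/3 line 677 were called, 225 nuclear and 452 cytoplasmic, 26.6% of the members beside 35.6% of all transcripts, or 339 and 288 on the second scale.

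The place of the stop codon divided these calls, which were counted by class only as shares of all TPM. Among members that stop in an extended or intron-retaining exon, 107 had a higher share in wild-type nuclei and 47 in cytoplasm, of 351 tested. That is 43.9% of the class called, beside 52.9% of all transcripts. Among those that stop in a canonical coding exon in another frame the numbers were 176 and 367 of 1415, and among those that stop in an exon the canonical transcript lacks, 100 and 143 of 585. Members with the canonical stop and a spliced 3′ UTR gave 19 and 37 of 144, and those beyond the canonical ends 4 and 8 of 33. The median share of the extended or intron-retaining class was 7.36% in nuclei and 3.75% in cytoplasm, against 7.24 and 8.18% for the other-frame class. The AGO1/2/3 line gave 64 nuclear and 35 cytoplasmic calls of 351 in the extended class and 98 and 267 of 1415 in the other-frame class. Over the members whose listed length equals that of the annotation, a choice made after seeing the data, wild type gave 101 and 42 of 316 in the extended class and 159 and 346 of 1303 in the other-frame class.

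**Figure D2:**
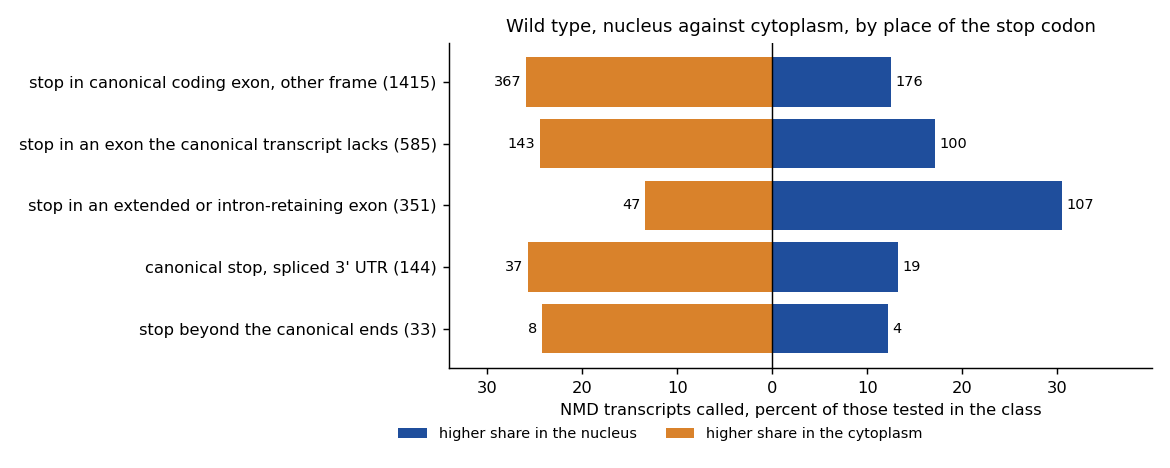
Percent of tested NMD transcripts called between wild-type nuclei and cytoplasm (x axis) for 5 places of the stop codon (y axis, number tested in parentheses), with bars to the right for a higher nuclear share and to the left for a higher cytoplasmic share, and the number called at each bar. The extended or intron-retaining class has 107 nuclear and 47 cytoplasmic calls, and the other 4 classes have more cytoplasmic than nuclear calls.

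Transcripts of the SR proteins lay on both sides. SRSF7-208, from the gene of a splicing factor of the SR family, took 42, 42 and 46.2% of SRSF7 in wild-type nuclei and 2.97, 2.84 and 2.01% in cytoplasm (log2 ratio 4.80, SE 0.16, limma adjusted p 2.68e-17). SRSF1-204, from another SR protein, took 8.38, 9.69 and 16.6% in nuclei and 0.162, 0.0616 and 0.138% in cytoplasm. TRA2B-205, which carries the poison exon of the SR-like protein TRA2B, lay the other way, at 0.0918, 0.37 and 0% in nuclei and 26, 23.4 and 47.7% in cytoplasm. SRSF2-208 and SRSF8-202 were also higher in cytoplasm, by 15.4 and 8.93 percentage points, so 5 of the 16 SR-protein members tested were called, beside 52.9% of all transcripts, with 2 higher in nuclei and 3 in cytoplasm. The SRSF8-202 call was lost in a limma fit of the compared groups alone, at an adjusted p of 0.0654.

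Other members were far apart between the fractions of wild type, named on the condition of no overlap. That condition held for 56.8% of members and 68.9% of all transcripts tested. MRPS25-207, from a mitochondrial ribosomal protein gene, took 33.5, 34.1 and 35% in nuclei and 5.68, 4.06 and 2.73% in cytoplasm. MSH6-204 (a mismatch repair protein) was 27.4 points higher in nuclei, a call lost without cytoplasmic passage 29 or nuclear passage 27 or 29 (limma adjusted p 0.0509 to 0.108). In the same direction GABARAPL1-210 (an autophagy protein) differed by 25.3 points and BOLA2-SMG1P6-202, from a readthrough gene with near-identical copies and therefore uncertain, by 25.9 points. H4C15-203 and H4C15-202, both from a histone H4 gene, lay in opposite directions, at 4.63, 2.81 and 0% against 84.7, 84.1 and 75.6% for the former and 49.7, 49.6 and 47.3% against 1.49, 2.85 and 4.71% for the latter. In these wild-type estimates the share of the former was thus higher in cytoplasm and that of the latter in nuclei. Histone H4 genes are near-identical in coding sequence, so both are uncertain.

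On the cytoplasmic side H4C15-203 was followed in size by 5 members. MTHFD1-210, from a folate-pathway enzyme gene, took 36.9, 30.5 and 40.5% in nuclei and 76.7, 79.3 and 79.9% in cytoplasm. ROCK1-207, from the gene of a kinase that acts on the actin cytoskeleton, took 44, 41.3 and 37.7% in nuclei and 79.7, 78.1 and 78.6% in cytoplasm. NCBP3-204 (a cap-binding protein) was at 0.846, 0 and 0% in nuclei and 43, 44.6 and 40.1% in cytoplasm. SARAF-206 was listed at 0 in all 3 nuclear libraries and took 38.6, 38.6 and 36.5% in cytoplasm, and MED28-203 (a Mediator subunit) took 7.43, 9.03 and 4.16 against 45.1, 44.2 and 41.4%. For these a large cytoplasmic share of the gene was listed under a transcript typed as NMD. The listed lengths of MTHFD1-210 and ROCK1-207 differ from release 44, so what was quantified for them was not shown to be the typed structure.

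The mean NMD share of all TPM in nuclei overlapped wild type in every knockout, while its median and pooled share did not. The differences of the mean were -0.0606 percentage points in AGO1 (exact permutation p 0.4), -0.0234 in AGO2 (exact p 0.8), -0.141 in AGO1/2 (exact p 0.3) and -0.0817 in AGO1/2/3 (exact p 0.3). The median over genes was 3.76% in wild-type nuclei and lower in the knockouts, at 3.64, 3.51, 3.09 and 3.25% in the same order. The pooled share, the summed NMD TPM over the summed TPM of these genes, was 7.66% in wild type and 7.38, 7.4, 7.31 and 7.42%. No knockout library overlapped wild type in either, with an exact permutation p of 0.1 each, the smallest possible. In cytoplasm the differences of the mean were -0.0876 in AGO1 (exact p 0.8), 0.189 in AGO2 (exact p 0.4), 0.437 in AGO1/2 (exact p 0.1) and 0.212 in AGO1/2/3 (exact p 0.4). The 3 AGO1/2 cytoplasmic libraries, at 10.3% ± 0.144, all lay above the 3 wild-type ones, at 9.82% ± 0.238, and 0.1 is the smallest p that this design allows. The cytoplasmic median was 2.44% in wild type and 2.48, 2.63, 2.83 and 2.69% in the knockouts, without overlap in AGO1/2 and AGO1/2/3, and the pooled share was 7.82% and 7.55, 7.77, 7.95 and 7.84%, without overlap in AGO1. A p that misses the threshold in this design says little about whether the means differed.

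As a share of protein-coding plus NMD TPM, the nuclear NMD share was lower in every knockout line. It was 13.3% ± 0.0711 in wild type, 12.8% ± 0.0625 in AGO1, 12.6% ± 0.103 in AGO2, 11.6% ± 0.103 in AGO1/2 and 12% ± 0.255 in AGO1/2/3 (SD, n = 3), with no overlap with wild type and an exact permutation p of 0.1 each, the smallest possible. The retained-intron share moved alongside, from 21.6% ± 0.339 to 19.6% ± 0.275, 18.2% ± 0.129, 13.8% ± 0.521 and 15.5% ± 0.812, and the protein-coding share from 62.8 to 65.1, 66.8, 72.1 and 70%. The MALAT1 with NEAT1 sums of these nuclei, given above, were lower and the GAPDH with ACTB sums higher in the knockouts. The part of these sums, of intron retention and of depth in the nuclear NMD shares was not tested. In cytoplasm the retained-intron share stayed between 5.42 and 5.77% as group means.

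The number of NMD transcripts called in nuclei differed between the knockouts. AGO1 gave 22 of 2850 tested, 15 with a higher and 7 with a lower share, which is 0.772% of members beside 1.44% of all transcripts. In a limma fit of the compared groups alone AGO1 gave 0 calls and AGO2 13. AGO2 gave 78, 47 higher and 31 lower, 2.74% beside 5.54%. AGO1/2 gave 463, 239 higher and 224 lower, 16.2% beside 27.7%. AGO1/2/3 gave 309, 166 higher and 143 lower, 10.8% beside 19.6%. In all 4 the percent of members called was below that of all transcripts, a difference that was not tested. Libraries without overlap between knockout and wild type were common. In the same order this held for 16.6, 22.4, 39.8 and 33.6% of members and 21.4, 30, 53.8 and 46.3% of all transcripts tested. The 4 counts are not independent, since the comparisons share the 3 wild-type libraries. Because of those shared controls, the 270 members called in the double as well as the triple knockout, 58.3% of the former and 87.4% of the latter, are given as a count only.

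The direction again depended on the denominator. As a share of protein-coding plus NMD TPM, the calls in AGO1/2 became 145 higher and 421 lower, in AGO1/2/3 108 and 270, in AGO2 33 and 61, and in AGO1 10 and 10. The median change of all tested members was -0.30 percentage points of all TPM in AGO1/2 against -0.79 over all transcripts, and -0.24 against -0.62 in AGO1/2/3. For scale, retained-intron transcripts in AGO1/2 nuclei had 124 gains and 3032 losses among 12186 tested, and protein-coding transcripts 5218 gains and 1698 losses among 21899. In AGO1/2/3 these were 103 and 1940, and 3977 and 1193.

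**Figure D3:**
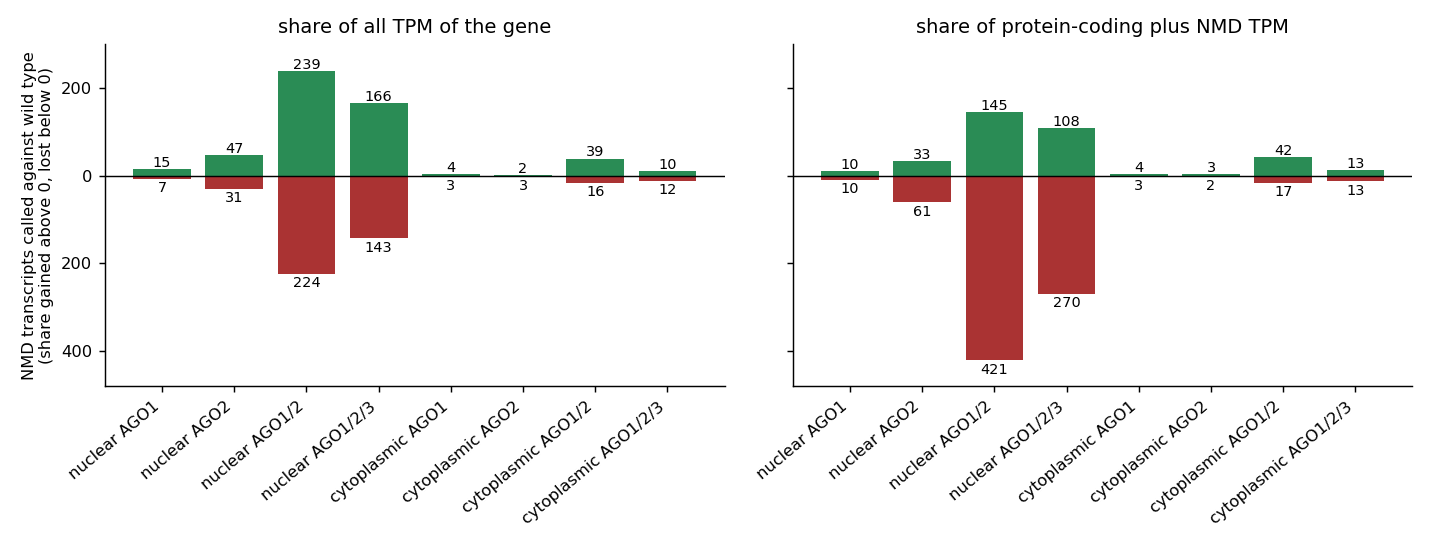
Number of NMD transcripts called (y axis; gains upward, losses downward) in the 8 knockout comparisons with wild type (x axis), with the share taken of all TPM of the gene or of protein-coding plus NMD TPM. Nuclear AGO1/2 has 239 gains and 224 losses on the first scale and 145 and 421 on the second, and each cytoplasmic comparison has fewer calls than the nuclear one of the same line.

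Members that stop in an extended or intron-retaining exon gave more losses than gains in the double and triple knockouts. In AGO1/2 nuclei 79 of 431 were called, 20 higher and 59 lower, with a median change of -1.39 percentage points and 26.9% of the class higher. The called part was 18.3%, beside 27.7% of all transcripts, which had a median change of -0.79 points with 41% higher. In AGO1/2/3 nuclei 53 of 431 were called, 12 higher and 41 lower, with a median of -1.02 points and 31.3% of the class higher. The called part was 12.3%, beside 19.6% of all transcripts, which had a median of -0.62 points with 41.5% higher. The other-frame class gave 148 higher and 108 lower of 1514 in AGO1/2 with a median of -0.05 points, and 107 and 68 in AGO1/2/3 with a median of -0.06 points. The class with an exon that the canonical transcript lacks gave 53 and 45 of 668 in AGO1/2, and 36 and 27 in AGO1/2/3. Over members whose listed length equals that of the annotation the extended class gave 17 higher and 56 lower of 391 in AGO1/2, and 10 and 39 in AGO1/2/3. In the single knockouts the extended class had 3 gains and 3 losses in AGO1 and 4 and 6 in AGO2. The retained-intron share of the same nuclei moved the same way as the extended class, and its part in that result was not tested.

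SRSF7-208 and SRSF1-204 belong to the extended class, and both fell in AGO1/2 nuclei. SRSF7-208 stood at 42, 42 and 46.2% in wild-type nuclei, at 37, 37.4 and 40.7% in AGO1, 40.7, 38.8 and 44.5% in AGO2, 25, 23.1 and 27.3% in AGO1/2, and 35.2, 31.2 and 31% in AGO1/2/3. The AGO1/2 and AGO1/2/3 libraries lay below all wild-type libraries. The changes were -18.3 points in AGO1/2 (log2 ratio -1.19, SE 0.12, limma adjusted p 1.08e-05) and -10.9 points in AGO1/2/3 (log2 ratio -0.67, SE 0.12, limma adjusted p 0.00121). Its own level was 48.8, 52.24 and 35.91 TPM in wild-type nuclei and 30.4, 31.63 and 29.36 TPM in AGO1/2.

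SRSF1-204 stood at 8.38, 9.69 and 16.6% in wild-type nuclei, 4.02, 3.58 and 4.78% in AGO1, 8.84, 9.22 and 10.8% in AGO2, 3.3, 2.69 and 5.8% in AGO1/2, and 7.23, 6.49 and 6.64% in AGO1/2/3. The AGO1, AGO1/2 and AGO1/2/3 libraries all lay below the wild-type ones. The first and second of these lines were called, with changes of -7.44 points (log2 ratio -1.53, SE 0.30, limma adjusted p 0.0252) and -7.64 points (log2 ratio -1.68, SE 0.30, limma adjusted p 5.6e-04), and AGO1/2/3 was not, at -4.78 points with 0.059 in limma. The AGO1 call was lost when any 1 AGO1 library was left out, with limma adjusted p of 0.0508 to 0.0849. It was also lost in a limma fit of the compared groups alone, at 0.143, and without wild-type passage 29, where the change was -4.91 points.

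TRA2B-205 rose in the same nuclei. It took 0.0918, 0.37 and 0% of TRA2B in wild-type nuclei, 0.368, 0.163 and 0.385% in AGO1, 0.396, 0.504 and 0.459% in AGO2, 9.27, 10.7 and 9.73% in AGO1/2, and 3.02, 6.3 and 7.11% in AGO1/2/3. The double and triple knockouts were above every wild-type library, by 9.74 points (log2 ratio 5.97, SE 0.51, limma adjusted p 3.38e-06) and 5.32 points (log2 ratio 4.98, SE 0.51, limma adjusted p 3.42e-05). The gene itself was at 154.8, 159.2 and 125.1 TPM in wild-type nuclei and 125.8, 124.5 and 107.4 TPM in AGO1/2, while the transcript went from 0.1421, 0.5884 and 0 TPM to 11.66, 13.32 and 10.45 TPM. In cytoplasm, where its share was already high, AGO1/2 had 28.5, 26.4 and 27.6% and AGO1/2/3 31.7, 29.2 and 32%, with adjusted p of 0.633 and 0.97 in limma. Without AGO1/2/3 passage 12 or 14 its nuclear change was 4.91 or 4.51 points, under the minimum of 5.

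Other SR-protein members were not called in nuclei. Of 26 members in 13 of the 14 SR genes listed, 18 were tested, and 1 was called in AGO1, 0 in AGO2, 3 in AGO1/2 and 2 in AGO1/2/3, beside 1.44, 5.54, 27.7 and 19.6% of all transcripts. The median change of the 18 was -0.62 points in AGO1/2, beside -0.79 over all transcripts, and -0.14 points in AGO1/2/3, beside -0.62, with 6 of them higher in each. In cytoplasm 0 of 12 were called in any knockout.

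MET-204 showed a lower nuclear share in each knockout. MET encodes the receptor for hepatocyte growth factor, and the transcript took 28.3, 27.1 and 30.2% in wild-type nuclei, 22, 24.2 and 21.6% in AGO1, 17, 20.2 and 17.9% in AGO2, 9.76, 9.48 and 10% in AGO1/2, and 14.2, 13.1 and 12.5% in AGO1/2/3. No knockout library reached the lowest wild-type one, but no overlap was a condition for naming members by size of change. The log2 ratios were -0.45, -0.82, -1.88 and -1.38, each with SE 0.10, and the limma adjusted p were 0.0434, 0.00102, 3.72e-07 and 6.69e-06. The AGO1 call was lost in a fit of the compared groups alone (limma adjusted p 0.191), without any 1 AGO1 or wild-type library (0.066 to 0.131 in limma), in thinned reads and on the protein-coding plus NMD scale. Its level went from 25.48, 22.39 and 27.64 TPM in wild type to 10.37, 9.448 and 11.05 TPM in AGO1/2. In wild-type cytoplasm it took 4.03, 4.6 and 3.87%.

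MTHFD1-210 and ROCK1-207, both with a higher share in wild-type cytoplasm, were higher in the knockout nuclei. MTHFD1-210 took 36.9, 30.5 and 40.5% in wild-type nuclei, 43.3, 47.7 and 47.2% in AGO1, 51.7, 48 and 49.9% in AGO2, 58.5, 57.9 and 61.2% in AGO1/2, and 51.6, 53.6 and 60.3% in AGO1/2/3. The called changes were 13.9 points in AGO2 (log2 ratio 0.83, SE 0.16, limma adjusted p 0.0101), 23.2 in AGO1/2 (log2 ratio 1.37, SE 0.16, limma adjusted p 3.18e-05) and 19.2 in AGO1/2/3 (log2 ratio 1.13, SE 0.16, limma adjusted p 2.79e-04). In AGO1 the adjusted p was 0.077 in limma, and the AGO2 call was lost in a limma fit of the compared groups alone, at 0.0698.

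ROCK1-207 took 44, 41.3 and 37.7% in wild-type nuclei, 52.5, 46.3 and 46.8% in AGO1, 54.8, 50.8 and 54.2% in AGO2, 66, 62.7 and 61% in AGO1/2, and 58.3, 59.3 and 60.4% in AGO1/2/3. All 12 knockout libraries lay above wild type, and the same condition of naming applied. The AGO2, AGO1/2 and AGO1/2/3 changes were called, at 12.2, 22.2 and 18.3 points with limma adjusted p of 0.00676, 8.49e-06 and 9.4e-05, and AGO1 was not, at 0.099. The AGO2 call was lost in a limma fit of the compared groups alone, at 0.0608. In cytoplasm its share differed from wild type by -0.43 to -1.24 points over the 4 lines.

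**Figure D4:**
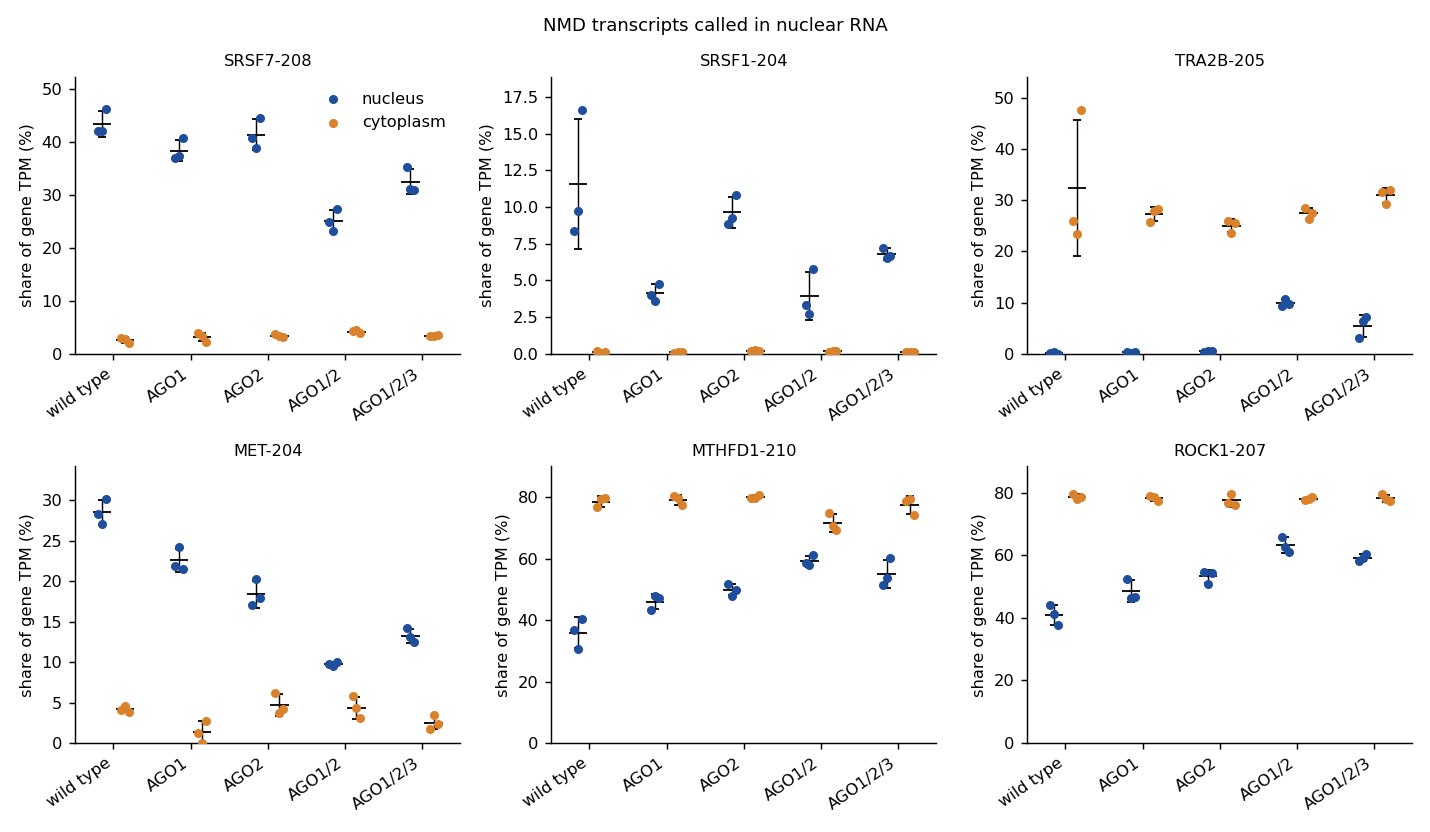
Share of the gene's TPM (y axis, percent) in each library for 6 NMD transcripts across 5 genotypes (x axis) in nuclei and cytoplasm, with points for libraries, lines for means and bars for SD (n = 3). SRSF7-208, SRSF1-204 and MET-204 are high in wild-type nuclei and lower in AGO1/2 nuclei, while TRA2B-205, MTHFD1-210 and ROCK1-207 are higher in AGO1/2 nuclei than in wild-type nuclei.

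Among the 22 members called in AGO1 nuclei, SMAD4-213, from the gene of the shared mediator of TGF-β signalling, took 10.3, 15.7 and 10.1% against 4.23, 2.84 and 2.42% in wild type (8.88 points, log2 ratio 1.99, SE 0.22, limma adjusted p 0.00223). Its share in AGO2 nuclei was 15.9, 17.6 and 15.2% and in AGO1/2 nuclei 18.2, 16.3 and 20.3%, all above wild type. URI1-206 (a prefoldin-like chaperone) took 37.1, 36.2 and 34.8% against 21.7, 25.5 and 26.2%. MAD2L1-202 (a spindle checkpoint protein) took 69, 70.2 and 70.9% against 59.5, 57.9 and 56.5%. CDK2-208, from a cell cycle kinase gene, was lower at 9.11, 7.52 and 11.2% against 17.2, 15.1 and 15.5%, and SEC24C-203 (a COPII coat protein) was lower by 6.83 points. None of these groups overlapped wild type, which was a condition for naming them. It held for 16.6% of members and 21.4% of all transcripts tested in AGO1 nuclei. In a limma fit of the compared groups alone all 5 calls were lost, at adjusted p of 0.0978 to 0.154. The CDK2-208 call was also lost without AGO1 passage 6 or 7 or any 1 wild-type library (limma adjusted p 0.0586 to 0.107), and that of SEC24C-203 without any 1 AGO1 library or wild-type passage 28 or 29 (limma adjusted p 0.0767 to 0.106). On the protein-coding plus NMD scale MAD2L1-202 changed by 4.89 points, under the minimum of 5.

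In AGO2 nuclei IPO4-203, of the importin 4 gene, was listed at 0 in all 3 libraries against 17.1, 11.8 and 19.3% in wild type (limma adjusted p 5.21e-05). PSMD9-204 (a proteasome assembly protein) rose to 28.6, 21.7 and 25.4% from 11.1, 12.8 and 12.2%. SNAPC3-206 (a subunit of the small nuclear RNA activating complex) rose to 33, 37.3 and 35.2% from 22, 22 and 20.2%. FLOT2-206 (flotillin 2) rose by 14.6 points. B2M-202 fell to 0, 0 and 3.45% from 12.5, 17.8 and 12.7%. RIOK1-203 (a kinase of ribosome maturation), PPM1D-202 (a p53-induced phosphatase) and NAA16-204 (part of an N-terminal acetyltransferase) had shares lower by 11.2, 10.4 and 10.2 points. In a limma fit of the compared groups alone the calls of B2M-202 (adjusted p 0.0909), FLOT2-206 (0.109), RIOK1-203 (0.0516), PPM1D-202 (0.134) and NAA16-204 (0.0978) were lost. With 1 library left out, B2M-202 was lost without AGO2 passage 8 or 9 or any wild-type library (limma adjusted p 0.0786 to 0.139), FLOT2-206 without AGO2 passage 8 or 9 or wild-type passage 27 (up to 0.071), and RIOK1-203 without AGO2 passage 8 or 9 or wild-type passage 28 (up to 0.0796). PPM1D-202 was lost without any AGO2 library or wild-type passage 27 or 28 (limma adjusted p up to 0.146), and NAA16-204 without AGO2 passage 10 (0.0596).

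In AGO1/2 nuclei the largest gain among the named members was that of H4C15-203, at 48.6, 56.5 and 12.8% against 4.63, 2.81 and 0%, while H4C15-202 fell to 22.2, 15.8 and 38.3% from 49.7, 49.6 and 47.3%. Histone H4 genes are near-identical in coding sequence, so both values are uncertain. CYTH2-202 (an ARF exchange factor) took 37, 37.9 and 34.2% against 13.9, 7.9 and 18.3%, and PSMD9-204 35.8, 34.9 and 30%. NOL12-202, of a nucleolar RNA-binding protein gene, was listed at 0 in all wild-type nuclei and took 25.1, 18.6 and 18.8%. On the other side GABARAPL1-210 fell to 8.19, 6.24 and 9.92% from 30.6, 18.4 and 27.3%. CUL5-205 (a cullin) was at 0, 18 and 0% against 32.2, 26.5 and 23.3%, and HRAS-206 (the small GTPase) at 0, 20.3 and 0% against 24.8, 30.1 and 20.5%, so that 1 of the 3 libraries of each was above 0. The HRAS-206 call was lost in a limma fit of the compared groups alone, at an adjusted p of 0.0686.

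In AGO1/2/3 nuclei H4C15-203 took 37.8, 27.4 and 21%, against the same 4.63, 2.81 and 0% in wild type. RDX-207 (radixin) took 68.7, 60.1 and 52.9% against 34.9, 49.4 and 34.1%, and KMT2E-201 (a chromatin regulator) 22.4, 21.7 and 25.6% against 9.04, 4.8 and 3.12%. CYTH2-202 rose here too, to 28, 29.5 and 35.3%. PIAS1-206 (a SUMO ligase) fell to 39.1, 37.3 and 40.8% from 50.1, 56.1 and 55.5% (log2 ratio -0.86, SE 0.16, limma adjusted p 0.00133). DCAF6-208 (a substrate receptor of CUL4 ligases) fell to 10, 8.61 and 8.47% from 22.2, 19.4 and 19.6%. IRF3-219, from an interferon regulatory factor gene, fell to 17.8, 17.5 and 15.5% from 26.5, 29.7 and 28%. GTPBP1-202 and EEF1AKMT2-203 were lower by 11.5 and 11.3 points. The calls of RDX-207 and GTPBP1-202 were lost without AGO1/2/3 passage 11 or 12 or wild-type passage 27, and also without wild-type passage 29 for RDX-207 and 28 for GTPBP1-202 (limma adjusted p 0.0516 to 0.0873 and 0.0663 to 0.123).

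Fewer members were called in cytoplasm. Of 2006 tested, 7 were called in AGO1, 4 higher and 3 lower, 0.349% of members beside 0.432% of all transcripts. AGO2 gave 5, 2 higher and 3 lower, 0.249% beside 0.612%. AGO1/2 gave 55, 39 higher and 16 lower, 2.74% beside 3.92%, and AGO1/2/3 gave 22, 10 higher and 12 lower, 1.1% beside 1.93%. At an unadjusted p under 0.05 in limma the counts without a minimum change were 215, 252, 395 and 308. Counts at that level include some that arise by chance. No share over all transcripts stands beside them, so they say nothing particular to NMD transcripts. The double and triple knockouts had 15 called members in common, 27.3% of the former and 68.2% of the latter, in comparisons that share the wild-type libraries.

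ELP2-210, from the gene of an Elongator subunit, rose in the cytoplasm of all 4 lines. It took 6.98, 6.4 and 7.81% in wild type, 20.6, 24.7 and 23.2% in AGO1, 23.3, 22.7 and 22% in AGO2, 19, 12.7 and 17.2% in AGO1/2, and 22.6, 15.6 and 18.6% in AGO1/2/3. All 12 knockout libraries were above wild type. The changes were 15.8, 15.6, 9.26 and 11.9 points, with log2 ratios of 1.91, 1.90, 1.34 and 1.57 (SE 0.19 each) and limma adjusted p of 3.76e-04, 5.01e-04, 0.00147 and 9.13e-04.

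C17orf49-205 rose in 3 of the 4 lines. Its share was 1.66, 4.06 and 1.85% in wild type, 9.25, 9.67 and 8.55% in AGO1, 6.19, 4.55 and 5.55% in AGO2, 11.4, 9.79 and 8.78% in AGO1/2, and 12.2, 9.44 and 8.41% in AGO1/2/3. AGO2 lay above wild type too, but its adjusted p of 0.0731 in limma missed the threshold. The adjusted p of the other 3 were 0.00641, 0.001 and 0.00179 in limma. In limma fits of the compared groups alone the AGO1 and AGO1/2/3 calls were lost, at 0.125 and 0.069.

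TANK-209 and DNAJC10-203 were above 0 in cytoplasm in the wild-type libraries alone. TANK-209, of a gene for an adaptor of NF-κB and interferon signalling, took 4.22, 9.27 and 14.4% in wild-type cytoplasm and was listed at 0 in all 12 knockout libraries (limma adjusted p 0.00527, 0.0147, 0.00368 and 0.00601 in the order single, double and triple knockout, AGO1 first). DNAJC10-203, of an endoplasmic reticulum chaperone gene, took 15.2, 15.2 and 13.3% in wild type and was listed at 0 in all 12 (limma adjusted p 0.00653, 0.00742, 0.00412 and 0.00483). In nuclei DNAJC10-203 took 20.3 to 27.8% across all 15 libraries. A value of exactly 0 from a method that divides reads among overlapping transcripts can be a failed estimate, so no fold change is given. With 0 in all 12 knockout libraries, both transcripts reached the minimum mean TPM for testing through the wild-type cytoplasmic libraries alone. The comparisons of each transcript share those same wild-type libraries, so their adjusted p-values are not independent support. With a pseudocount of 1 TPM the AGO2 call of TANK-209 was lost, at 0.0617 in limma.

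AGO2-209, an NMD transcript of AGO2 itself, fell in the cytoplasm of 2 lines. It took 28.7, 29.6 and 28.7% in wild type, 25.1, 21.7 and 23.8% in AGO2, 23.3, 23.2 and 19.8% in AGO1/2, and 22.6, 22.3 and 21.3% in AGO1/2/3. The libraries of all 3 lines labelled AGO2-/- lay below wild type, and the calls were in AGO1/2 (-6.88 points, log2 ratio -0.52, SE 0.10, limma adjusted p 0.0115) and AGO1/2/3 (-6.96 points, limma adjusted p 0.0187), while AGO2 alone had 0.101. In AGO1 cytoplasm 0 of the 2 Argonaute members tested were called, AGO2-209 among them. AGO2 is itself an edited gene in those 3 lines, and the part of the edit in this share was not tested. H2AX-201, from the gene of the damage-marking histone H2AX, fell to 28.5, 29.7 and 31.9% in AGO1/2 and to 30.2, 26.4 and 29.8% in AGO1/2/3 from 38.1, 40.5 and 48.5% (limma adjusted p 0.00746 and 0.00708). In limma fits of the compared groups alone the adjusted p of AGO2-209 were 0.128 and 0.0909, those of H2AX-201 were 0.102 and 0.108, and these 4 calls were lost. The AGO2-209 call in AGO1/2/3 was also lost without any 1 AGO1/2/3 library or wild-type passage 28, at 0.0503 to 0.0784 in limma. In wild-type nuclei AGO2-209 took 10.7, 14 and 12.7%.

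**Figure D5:**
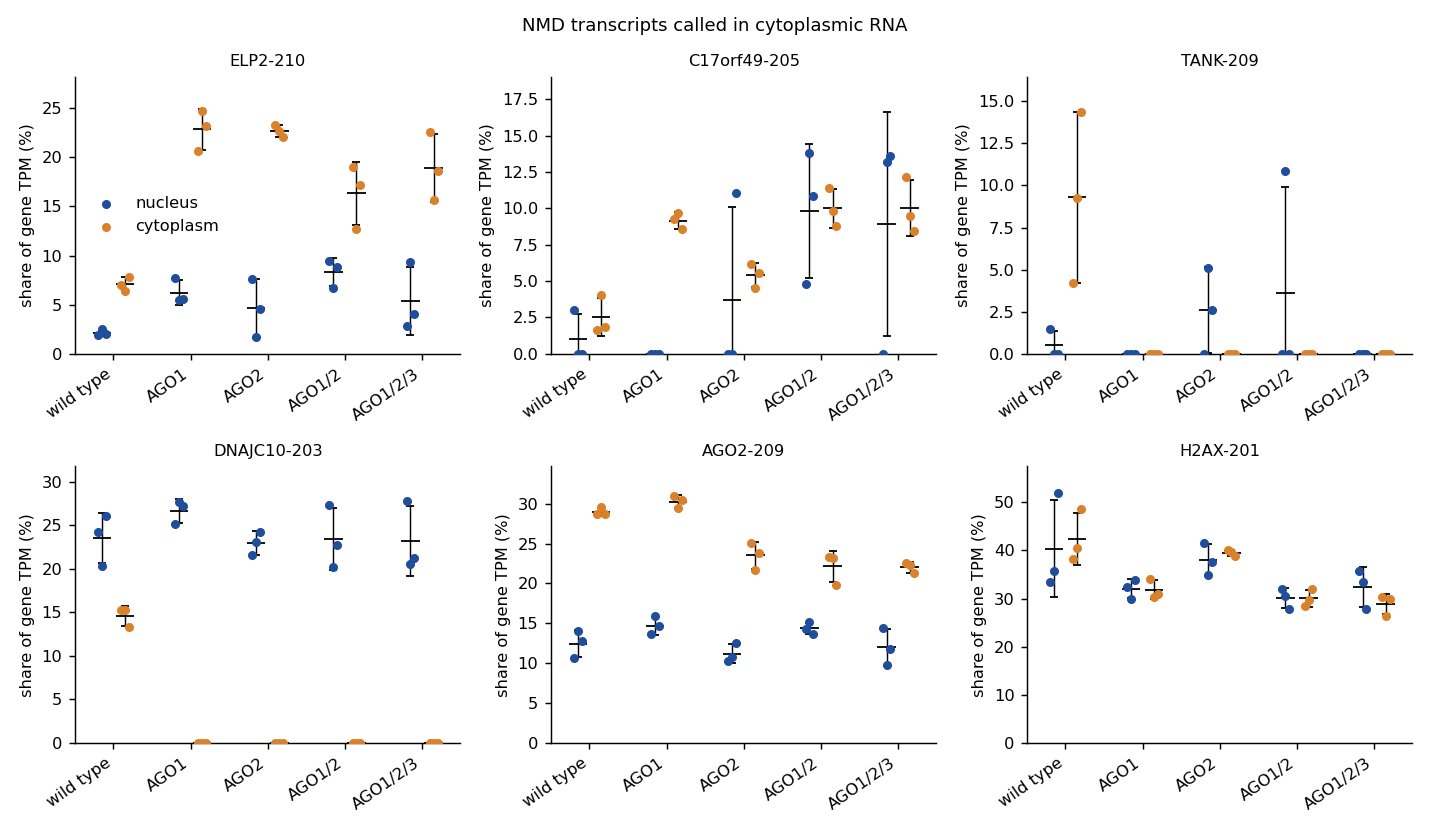
Share of the gene's TPM (y axis, percent) in each library for 6 NMD transcripts across 5 genotypes (x axis) in nuclei and cytoplasm, with points for libraries, lines for means and bars for SD (n = 3). In cytoplasm ELP2-210 is above wild type in all 12 knockout libraries, TANK-209 and DNAJC10-203 are listed at 0 in all 12, and AGO2-209 is below its wild-type values in the 3 lines labelled AGO2-/-.

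Further members were called in the cytoplasm of the double and triple knockouts. In AGO1/2, C12orf29-202 rose by 13.4 points (limma adjusted p 0.0189), MRPL22-204 (a mitochondrial ribosomal protein) by 10.0, TBC1D5-202 (a Rab GTPase-activating protein) by 9.05, GTF2A1-201 (the transcription factor TFIIA) by 7.65 and UBE2J2-210 (a ubiquitin-conjugating enzyme) by 7.57. In the same line NKAPD1-204, SLC25A37-201 (the iron transporter mitoferrin) and PHC2-210 (a Polycomb protein) fell by 10.6, 6.49 and 5.76 points, the last being listed at 0 in all 3 libraries. In AGO1/2/3, MBD2-203, from a methyl-CpG binding protein gene, took 39.5, 37.3 and 42.4% against 17.7, 24.2 and 25.1% (limma adjusted p 0.044). ITGB1BP1-209, PRIM1-208 (the primase subunit) and TATDN1-213 rose there by 6.6, 6.21 and 5.79 points. NDUFS7-205 (a complex I subunit), PPID-203 (a cyclophilin, at 0, 10.7 and 0%) and PITPNA-206 (a lipid transfer protein) fell by 16.5, 13.1 and 9.73 points.

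Most of these further calls were lost under an alternative. In AGO1/2, a limma fit of the compared groups alone lost C12orf29-202, GTF2A1-201, NKAPD1-204, SLC25A37-201, TBC1D5-202 and UBE2J2-210, at adjusted p of 0.102 to 0.228. Without AGO1/2 passage 10 those 6 and MRPL22-204 were lost (limma adjusted p 0.0519 to 0.116). GTF2A1-201, NKAPD1-204 and TBC1D5-202 were also lost without AGO1/2 passage 9 or 11 or wild-type passage 27 (limma adjusted p 0.0622 to 0.159), as were GTF2A1-201, NKAPD1-204 and SLC25A37-201 without wild-type passage 29 and TBC1D5-202 and SLC25A37-201 without 28 (0.0507 to 0.107 in limma). PHC2-210 was lost under none of these. In AGO1/2/3 the fit of the compared groups alone lost MBD2-203, ITGB1BP1-209, PRIM1-208, TATDN1-213, NDUFS7-205, PPID-203 and PITPNA-206, at limma adjusted p of 0.0581 to 0.266. Each was also lost without AGO1/2/3 passage 11 or 14 or wild-type passage 28, and MBD2-203 and ITGB1BP1-209 without any 1 library (limma adjusted p 0.0527 to 0.161 over the 7). Without AGO1/2/3 passage 12 NDUFS7-205 and PPID-203 were still called, as were PRIM1-208 and PITPNA-206 without wild-type passage 27 and TATDN1-213 without 29. On the protein-coding plus NMD scale MBD2-203 changed by 1.26 points (limma adjusted p 0.891).

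Whether the AGO1/2/3 effect differed between fractions was tested as an interaction. The nuclear and cytoplasmic effects differed for 238 of 2549 members, 135 with the nuclear effect more positive and 103 more negative, 9.34% of the members beside 14.8% of all transcripts. On the protein-coding plus NMD scale the split was 74 and 154. In the extended or intron-retaining class 41 of 351 were called, 8 more positive and 33 more negative in nuclei, against 83 and 46 of 1415 in the other-frame class and 32 and 20 of 585 in the class with an exon that the canonical transcript lacks. SRSF7-208 had a nuclear effect of -10.9 and a cytoplasmic effect of 0.78 points (limma adjusted p 0.00133 for the difference), and TRA2B-205 had 5.32 and -1.43 (limma adjusted p 1.43e-05). Without wild-type cytoplasmic passage 29, where TRA2B-205 took 47.7%, that difference turned to -0.926 points. ROCK1-207 (18.3 and -0.50 points, limma adjusted p 5.13e-05) and MTHFD1-210 (19.2 and -1.14 points, limma adjusted p 3.25e-04) differed likewise.

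The remaining lists of RNA regulators are read against all transcripts, of which 27.7% were called in AGO1/2 nuclei, 3.92% in AGO1/2 cytoplasm and 52.9% between wild-type fractions. Among NMD factors, 11 of 22 genes had 18 members, and of the 12 tested in nuclei 1 was called, MAGOHB-208 of an exon junction complex subunit, which fell to 15.5, 9.83 and 14.1% in AGO1/2 from 18, 19.6 and 17.8% (limma adjusted p 0.0474). That call was lost without either of the AGO1/2 libraries of passages 10 and 11 or any 1 wild-type library, at 0.0572 to 0.203 in limma, and in a fit of the compared groups alone, at 0.0737. In AGO1/2 nuclei 0 of the 12 were higher than wild type, with a median change of -1.80 points, beside 41% of all transcripts and 44.2% of all members higher and medians of -0.79 and -0.30 points, and 0 of 7 were called in any cytoplasm. Between wild-type fractions MAGOHB-208 and MAGOHB-209 were higher in nuclei, by 12.6 and 15.4 points. Among hnRNP and related genes, 23 members were tested in nuclei and PTBP2-207 (the neural homologue of PTBP1) was called, 5.85 points higher in AGO1/2 (limma adjusted p 0.0261), a call lost without AGO1/2 passage 9 or wild-type passage 29, at 0.115 and 0.103 in limma, and in a fit of the compared groups alone, at 0.0891. Of 22 tested between wild-type fractions 4 were called, all higher in cytoplasm, HNRNPA1-205 by 10.4, HNRNPH1-238 by 7.88, HNRNPU-224 by 9.28 and PTBP2-207 by 24.4 points. The PTBP2 gene averaged only 3.02 TPM in wild-type cytoplasm, under the 10 TPM asked of members named by size of change. On the protein-coding plus NMD scale HNRNPH1-238 turned to 0.662 points higher in nuclei and was not called. HNRNPA1-205 itself took 21.4, 21.5 and 23.7% in wild-type nuclei and 32.9, 33.2 and 31.8% in cytoplasm.

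SR protein kinases, which phosphorylate SR proteins, had 13 members in 5 of 6 genes. SRPK2-212 was called in AGO1/2 cytoplasm, 5.53 points higher (limma adjusted p 0.0463), but not without any 1 AGO1/2 library or wild-type passage 27 or 28, at 0.0864 to 0.148 in limma, nor in a fit of the compared groups alone, at 0.14, and 0 of 7 in any nuclei. Between wild-type fractions CLK4-211 and SRPK1-208 were higher in nuclei by 11.7 and 7.17 points and CLK1-204 in cytoplasm by 9.15 points. In wild-type cytoplasm the CLK4 gene averaged only 2.49 TPM and CLK4-211 0.036 TPM, and list members had no minimum of 10 TPM. The CLK1-204 call was lost without cytoplasmic passage 28 or 29 or nuclear passage 27 (limma adjusted p 0.075 to 0.178), and on the protein-coding plus NMD scale its direction turned to 19.5 points higher in nuclei. For genes whose symbols begin RPL or RPS, 39 genes held 68 members, and of 38 tested in nuclei 1 was called, RPS6KA5-203, lower by 11.9 points in AGO1/2 (limma adjusted p 0.00366) and by 10.2 points in AGO1/2/3 (limma adjusted p 0.0155). The AGO1/2/3 call was lost in a fit of the compared groups alone (limma adjusted p 0.0773) and without AGO1/2/3 passage 12 or wild-type passage 27 or 29 (0.0507 to 0.0667 in limma). RPS6KA5 encodes a kinase and not a ribosomal protein. Among the 33 genes left after 6 such symbols were removed, 0 of 35 tested were called in any knockout nuclei and 0 of 32 in any cytoplasm. Within wild type RPS3-218 was higher in nuclei by 5.59 points (4.16 and 4.7 without cytoplasmic or nuclear passage 29, under the minimum of 5), and RPS3-204 and RPS3-216 in cytoplasm by 8.98 and 6.26 points.

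The mRNA levels of the 22 NMD factor genes were tested by edgeR's quasi-likelihood test over all genes. In nuclei 8 passed in AGO1 (8 higher), 8 in AGO2 (6 higher), 19 in AGO1/2 (12 higher, 7 lower) and 12 in AGO1/2/3 (6 higher, 6 lower), beside 29.9, 40.2, 67.6 and 58.6% of all genes tested. In cytoplasm 1, 4, 9 and 11 passed, beside 12.4, 16.1, 49.2 and 38.7%. All 9 in AGO1/2 cytoplasm were lower, and in AGO1/2/3 2 were higher and 9 lower. UPF1, the central helicase of the pathway, was lower in AGO1/2 cytoplasm by a log2 fold change of -0.70 (edgeR adjusted p 3.08e-05), where its mean on the separate TPM scale was 7.904 against 16.84 TPM in wild type, and higher in AGO1/2 nuclei by 0.37 (edgeR adjusted p 0.00137). The release factor gene GSPT1 changed by -0.63 in AGO1/2 cytoplasm and by 0.34 in its nuclei. EIF4A3, the core helicase of the exon junction complex, changed by -0.91 in AGO1/2 nuclei and -0.73 in AGO1/2/3 nuclei. SMG8, which regulates the kinase SMG1, rose by 0.69 in AGO1/2 nuclei, and SMG5, which acts in the dephosphorylation of UPF1, changed by -0.55 in AGO1/2/3 cytoplasm.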

How the data were processed

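Nuclear and cytoplasmic RNA of HCT116 cells, wild type or lacking AGO genes, was depleted of ribosomal RNA and sequenced as stranded paired-end libraries (30 libraries, 3 per group), and the authors quantified it per transcript. The submitters' processing notes name STAR 2.5.3a and Salmon 0.11.0 and the build hg38. Per the file headers, the deposited tables hold estimated counts (reads assigned to a transcript, not always whole) and TPM (scaled by transcript length and library). The annotation release the authors used could not be matched, so transcript types, names and structures came from GENCODE release 44. Of 200401 transcripts listed, 195887 matched, and the 4514 unmatched ones took 2.23 to 4.01% of reads. The listed length equalled that of release 44 for 8104 members (92.4%), so the structures of the others may have changed.

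A transcript's share was its TPM as a percent of the TPM of all matched transcripts of its gene. Samples were grouped by the genotype and fraction in the labels. Shares were tested with limma 3.58.1 (R 4.3.3, moderated test with a trend on mean log2 TPM) on log2 of the transcript's TPM plus 0.1 over the rest of the gene plus 0.1, with all 15 libraries of a fraction in 1 fit, or all 30 for comparisons between fractions. Transcripts averaging under 0.5 TPM were left out, which kept 2850 members in nuclei, 2006 in cytoplasm and 2549 between fractions. P-values were adjusted by Benjamini-Hochberg over all transcripts tested, 42707 in nuclei and 25488 in cytoplasm. Means per library were compared by exact or 100000-resample two-sided permutation tests (scipy 1.17.1). Gene counts, summed and rounded, were tested with edgeR 4.0.16, and DESeq2 1.42.0 was an alternative.

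In simulated data for AGO1/2 nuclei, limma recovered 200 of 200 NMD transcripts changed 4-fold among 44490, with 12 calls in genes left unchanged. With edgeR 195 of 200 genes changed 2-fold were recovered among 18480, with 9 calls in unchanged genes. The simulated reads had the same dispersion for every feature and no uncertainty in dividing reads between transcripts. The changed transcripts had intermediate shares and were not of low TPM, so recovery of rare or overlapping members was not tested. Depth was 20431557 to 54097984 estimated reads in nuclei and 39476205 to 79731793 in cytoplasm, and wild type was the shallowest, so its low shares are the least precise.

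The members and gene lists were chosen with earlier results of these data known. Named transcripts were those called in the fixed lists of RNA regulators and, per comparison, up to 6 gains and 6 losses of the largest size among calls with no overlap between groups and a gene mean of at least 10 TPM, plus the 10 highest in TPM. The list of symbols beginning RPL or RPS was used as written, and its version without 6 symbols of other proteins was made after its members were seen. Alternatives were another pseudocount, other minimum levels, a 10-point minimum change, shares of protein-coding plus NMD TPM, reads thinned to the shallowest library, fits of the compared groups alone, and leaving out each library. The eCLIP samples were not analysed here.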

Additional observations from a re-analysis of the deposited data

Results flagged for a closer look

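One kind of result was singled out for a closer look, a knockout effect that differed between the fractions. In the interaction test of limma, the AGO1/2/3 effect on the share differed between nucleus and cytoplasm for 238 NMD transcripts under the thresholds of the report, and 36 of them are named by the rule given under the processing. Each value below is the change from wild type in nuclei minus that in cytoplasm, in percentage points.

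The nuclear effect was the more negative one for MBD2-203 (-25.9), NAA16-204 (-15.3), PIAS1-206 (-14.0), RIOK1-203 (-12.4), IRF3-219 (-12.4), EEF1AKMT2-203 (-12.3), GABARAPL1-210 (-11.9), SRSF7-208 (-11.7), DCAF6-208 (-11.2), SEC24C-203 (-11.1), BOLA2-SMG1P6-202 (-9.68), MRPS25-207 (-9.38), CEP192-210 (-9.27), GTF2A1-201 (-8.04) and REPS1-210 (-7.71). For MBD2-203 the cytoplasmic share was the one that rose, as given above.

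The nuclear effect was the more positive one for NOL12-202 (36.7), H4C15-203 (27.1), URI1-206 (23.7), MTHFD1-210 (20.4), ROCK1-207 (18.8), SNAPC3-206 (18.5), KMT2E-201 (17.3), PITPNA-206 (15.2), MED28-203 (14.5), DDX52-215 (14.4), DNAJC10-203 (14.2), PSMD9-204 (13.7), NCBP3-204 (13.6), COX6C-207 (12.9), CYTH2-202 (12.5), FTH1-208 (9.28), TANK-209 (8.80), SLC25A37-201 (7.79), SMAD4-213 (7.75), TRA2B-205 (6.75) and PPID-203 (5.18). For DNAJC10-203, TANK-209 and PPID-203 this value rests on cytoplasmic knockout shares listed at 0 in 3, 3 and 2 of the 3 libraries.

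Leaving out 1 library ended 8 of the 36 calls, those of COX6C-207, GTF2A1-201, MED28-203, MRPS25-207, NOL12-202, PPID-203, SLC25A37-201 and TANK-209, and turned the sign for TRA2B-205. A limma fit of the compared groups alone ended 9, those of BOLA2-SMG1P6-202, CYTH2-202, GABARAPL1-210, GTF2A1-201, IRF3-219, MRPS25-207, PITPNA-206, PPID-203 and SLC25A37-201. On the protein-coding plus NMD scale 7 were ended, and the value of MBD2-203 was -0.817.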

How the results depend on the processing

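Leaving out 1 library at a time gave 6 to 17 nuclear calls in AGO1 (of 22 with all libraries), 43 to 80 in AGO2, 409 to 466 in AGO1/2 and 229 to 317 in AGO1/2/3. In cytoplasm it gave 6 to 11, 3 to 7, 18 to 59 and 9 to 30, between fractions 951 to 1019 in wild type and 612 to 666 in AGO1/2/3, and for the interaction 179 to 242. The counts moved over 1.5 times without AGO1 passage 6 (14), 7 (8) or 8 (6) or wild-type passage 27 (14) or 29 (14) in AGO1 nuclei, without AGO2 passage 8 (46), 9 (44) or 10 (43) in AGO2 nuclei, and in cytoplasm without AGO1 passage 7 (11), AGO2 passage 10 (3), AGO1/2 passage 9 (29) or 10 (18), AGO1/2/3 passage 11 (13), 12 (12) or 14 (9), or wild-type passage 27 (3 in AGO2, 13 in AGO1/2/3).

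With a minimum change of 10 points the calls were 5, 25, 167 and 102 in nuclei (AGO1, AGO2, AGO1/2, AGO1/2/3), 4, 18 and 8 in cytoplasm (AGO1, AGO1/2, AGO1/2/3), 553 and 327 between fractions and 120 for the interaction. At 2 TPM or more they were 283 and 202 in AGO1/2 and AGO1/2/3 nuclei, 1, 1, 31 and 14 in cytoplasm, 470 and 339 between fractions and 139 for the interaction. With every transcript above 0 TPM cytoplasm gave 13, 15, 124 and 45, and with a pseudocount of 1 TPM 11, 12, 103 and 55. Fitted on the compared groups alone, nuclei gave 0 in AGO1 (401 at an unadjusted p under 0.05 in the fit of all groups) and 13 in AGO2, and cytoplasm 4 in AGO1, 18 in AGO1/2 and 10 in AGO1/2/3. Factor genes called in cytoplasm were then 5 in AGO1/2 and 5 in AGO1/2/3, against 7 to 12 and 7 to 13 with 1 library left out (7 without wild-type passage 27 or 28 in AGO1/2/3), and 14 to 20 and 9 to 13 in nuclei. The causes were not tested.

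The mean differences from wild type reversed in AGO1/2 and AGO1/2/3 nuclei for genes of at least 20 TPM (0.076 and 0.0785), in AGO1 cytoplasm with the median over genes (0.0365) and in AGO2 cytoplasm with pooled TPM (-0.044). The difference between fractions reversed with the median (0.838) and with protein-coding plus NMD TPM (0.914). Without 1 library the nuclear means ran from -0.111 to -0.016, -0.0741 to 0.0211 (0.0067 without AGO2 passage 9, 0.0211 without wild-type passage 27), -0.192 to -0.0644 and -0.132 to -0.0372, the cytoplasmic ones from -0.190 to 0.0429 (without wild-type passage 29), 0.0665 to 0.320, 0.334 to 0.567 and 0.1099 to 0.343, and nucleus minus cytoplasm from -1.02 to -0.967.

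Passage numbers were tried as a replicate block, which gave 1008, 670 and 218 calls for wild-type and AGO1/2/3 fractions and the interaction. Of 156 calls of named members in these comparisons it ended 4, those of GTF2A1-201 (limma adjusted p 0.101), PITPNA-206 (0.0533) and TANK-209 (0.0766) in the interaction and of MRPL22-204 (0.0777) between AGO1/2/3 fractions. The deviations of the 2 fractions of 1 passage correlated at 0.0324, 0.0148 and 0.0874 in wild type and at -0.0205 to 0.0218 elsewhere over 37700 transcripts, so the samples share a number and no pairing was shown. Named members and members of the fixed lists had 316 calls over the 11 comparisons, and 205 held in every alternative other than the 10-point minimum, which ended 109. Fits of the compared groups alone ended 78, 1 library left out 72, protein-coding plus NMD TPM 35, thinned reads 22, transcripts above 0 TPM 15, a pseudocount of 1 TPM 6, and 2 TPM or more 0 of the 260 still tested. The sign turned on the protein-coding plus NMD scale between fractions for CLK1-204 (19.5 in wild type, 16.1 in AGO1/2/3) and HNRNPH1-238 (0.662 in wild type), and in the interaction for TRA2B-205 without wild-type cytoplasmic passage 29 (-0.926).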
